A study of Mus musculus with 2 samples.

Results

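The genes described here are the integrins, cadherins and protocadherins of mouse embryonic fibroblasts, with Vcam1 and Icam1, which are membrane proteins that integrins bind. They were chosen by name, as every gene whose symbol is Itga, Itgb, Cdh or Pcdh followed by its subunit number or letter and that has a probe set naming it alone. Vcam1 and Icam1 belong to none of these families and were added singly. The choice was made with earlier results of these data known. This gave 62 of the 19946 genes so measured, of which 26 were integrin subunits, 23 cadherins and 11 protocadherins. The genes of a protocadherin cluster (Pcdhb) have longer symbols and are given apart. Mouse embryonic fibroblasts are connective tissue cells grown from embryos. Both cultures carried an adenovirus with LacZ, a bacterial enzyme gene used as control cargo, and were kept for 7 h in DMEM medium containing 1% FBS. One culture had DMSO, the solvent, and the other had celastrol, a triterpenoid from the thunder god vine, at 250 nM. The labels give neither the strain nor the embryo age of the cells. Each condition was measured on 1 Affymetrix array, so no difference below has a replicate check, no test was possible, and the compound cannot be told apart from the culture or the array it was measured on. In a whole culture, fewer cells of a type and less RNA per cell also cannot be told apart.

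Integrins are pairs of an alpha and a beta subunit that span the membrane, bind matrix proteins or counter-receptors outside the cell and link to actin through talin, kindlin and vinculin inside. Cadherins bind the same cadherin on a neighbouring cell in the presence of calcium, and the classical ones hold beta-catenin and p120-catenin on their cytoplasmic tail. Protocadherins share the outer cadherin repeats but not the catenin-binding tail, and are best known for cell sorting in the nervous system. Fibroblasts are known to use Itgb1-containing receptors for fibronectin and collagen, N-cadherin (Cdh2) and cadherin-11 (Cdh11) for cell contacts, and to display Vcam1 and Icam1 when NF-kB is active.

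Values are RMA expression values on the log2 scale, a scale on which a difference of 1 is a 2-fold change, and every difference is celastrol minus DMSO. A gene counted as detected if at least 1 of the arrays exceeded 5.72, the level under which 95% of the values of 1212 olfactory and vomeronasal receptor probe sets lay, genes that fibroblasts are not thought to express. Of the 62 adhesion genes, 42 were detected and 20 were under that limit on both arrays. The differences of the receptor probe sets ran from -0.42 to 0.41 in their central 95%, which is scatter between these arrays and holds no variation between cultures. Of the 42 detected adhesion genes, 12 (28.6%) lay outside that range, against 21.7% of the 13907 detected genes.

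Most adhesion genes differed little, and the few large differences were mostly downward. Vcam1, Pcdh18 and Cdh3 were at least 2-fold lower with celastrol, which is 3 of 42 detected members (7.14%) beside 0.662% of all detected genes. Itga6 alone was at least 2-fold higher, 1 of 42 (2.38%) beside 1.88%. At 1.5-fold, 7 members (16.7%) were lower, beside 4.68% of all detected genes, and 3 (7.14%) were higher, beside 6.19%. Of those higher, Itgb2 was above the detection limit only with celastrol. Vcam1 and Icam1, which were added singly, gave 1 of the members lower at 2-fold and 2 of those lower at 1.5-fold. By family, 0 of 20 integrins, 1 of 14 cadherins and 1 of 6 protocadherins were at least 2-fold lower. The group as a whole was not shifted in that direction, as 23 of the 42 (54.8%) lay above 0, where 48.1% of all detected genes did. The median difference was 0.07 for the members and -0.01 for all detected genes. By family the medians were 0.12 for 20 detected integrins, 0.08 for 14 cadherins and -0.12 for 6 protocadherins. With a stricter detection limit the cadherin median changed sign, to -0.18.

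**Figure D1:**
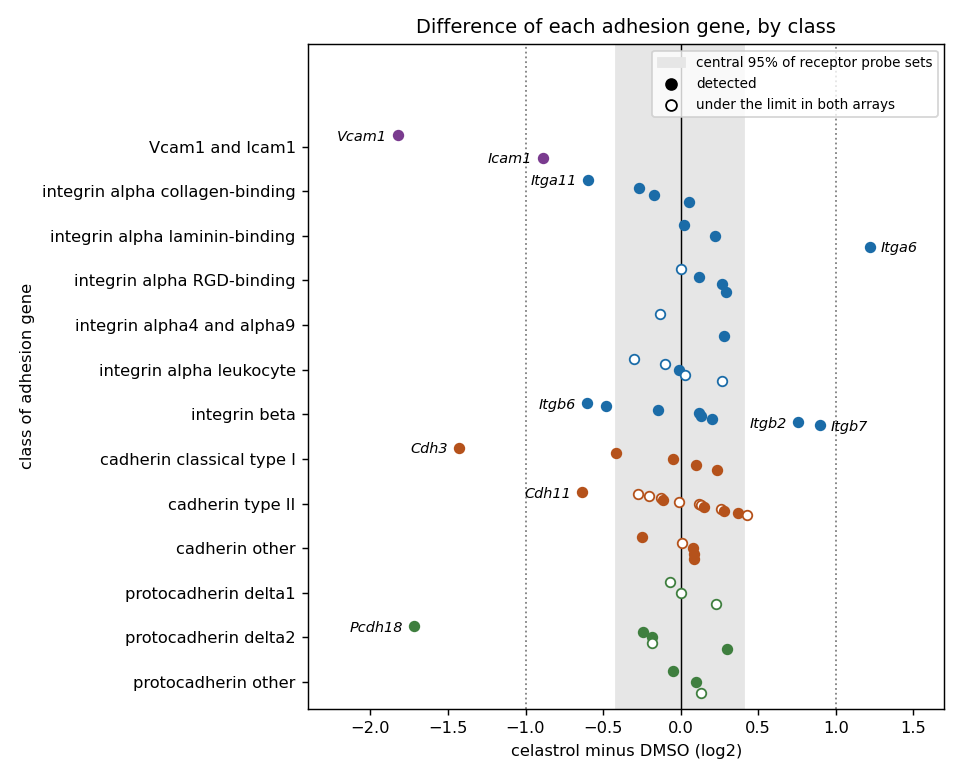
Celastrol minus DMSO on the log2 scale for each of the 62 adhesion genes, in rows by class; filled points are detected genes, open points genes under the detection limit on both arrays, dotted lines mark 2-fold, and the grey band is the central 95% of receptor probe sets. Vcam1, Pcdh18 and Cdh3 lie beyond 2-fold on the left and Itga6 beyond 2-fold on the right, while most other points lie in the grey band.

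Vcam1 had the lowest difference of the group. It is an immunoglobulin-type adhesion molecule that holds leukocytes through integrins containing Itga4 or Itga9, and its transcription is a textbook output of NF-kB. Its probe set (10501608) read 10.76 with DMSO and 8.93 with celastrol. The difference of -1.82, 3.54-fold lower, was rank 5 from the lowest among 13907 detected genes. Icam1, the ligand of the leukocyte integrin made of Itgal and Itgb2, read 7.82 with DMSO and 6.93 with celastrol (probe set 10583519). It was 1.85-fold lower, rank 155 from the lowest. Both counter-receptors stayed above the detection limit on both arrays. The alpha subunits just named for them, which are not all that can bind them, were near or under the limit in the same cultures. Itga4 read 5.62 and 5.49, and Itgal 5.20 and 5.47, with DMSO and celastrol in that order. Itga9, also named above for Vcam1, was detected at 6.08 with DMSO and 6.36 with celastrol, a difference of 0.28.

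Pcdh18, a protocadherin of the delta2 group, was lower by nearly as much. Its level was 11.32 with DMSO and 9.60 with celastrol (probe set 10498018), a difference of -1.72 or 3.29-fold, rank 8 from the lowest of all detected genes. The other delta2 genes did not show a difference of that size. Pcdh19, a gene whose human counterpart is mutated in an epilepsy of girls, read 8.78 and 8.59, Pcdh17 read 6.61 and 6.91, and Pcdh8 read 5.75 and 5.51, the last value being under the limit. Pcdh10 was under the limit on both arrays, with a difference of -0.19. No delta1 protocadherin was detected. Pcdh1, Pcdh7 and Pcdh9 lay between 4.89 and 5.48 on both arrays. Of the remaining protocadherins, Pcdh12, known from endothelium, read 5.84 and 5.79, and Pcdh15, known from the hair cells of the inner ear, read 6.51 and 6.61. Pcdh20 was under the limit. The large difference within the protocadherins was thus that of 1 gene of 6 detected.

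Vcam1 and Icam1 are textbook targets of NF-kB, so promoters were searched for a pattern of the kind that this factor binds, GGANNTTCC on either strand, where N is any base. The 250 bases before the start site are shown for Icam1 and Pcdh18, which had the largest differences downward among members in the RefSeq promoter table used (GRCm38.p6). They are written 5′ to 3′ on the strand of the gene, and capitals mark the match.
Icam1: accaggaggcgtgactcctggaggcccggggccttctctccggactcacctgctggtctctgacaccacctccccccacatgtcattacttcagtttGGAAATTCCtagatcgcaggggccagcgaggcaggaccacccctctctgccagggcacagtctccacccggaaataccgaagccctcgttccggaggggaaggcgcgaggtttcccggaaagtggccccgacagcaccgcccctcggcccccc
Pcdh18: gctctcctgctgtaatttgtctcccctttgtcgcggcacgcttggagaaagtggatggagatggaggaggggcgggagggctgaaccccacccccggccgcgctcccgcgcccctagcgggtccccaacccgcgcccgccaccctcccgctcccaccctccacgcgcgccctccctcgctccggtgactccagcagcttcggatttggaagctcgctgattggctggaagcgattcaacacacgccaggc
The Icam1 stretch lies at chr9:21015690-21015939 on the plus strand and that of Pcdh18 at chr3:49757317-49757566 on the minus strand. Counting the last base before the start as -1, the Icam1 stretch held GGAAATTCC at -153 to -145, which matches on both strands. The Pcdh18 stretch held no match. The pattern was present in 3.59% of 32851 promoter stretches of that length. Vcam1, Cdh3, Itga6, Cdh11 and Itgb2 were not searched. Among 46 stretches of 41 members it was present for 2 genes, Icam1 and Cdh7, the latter under the detection limit on both arrays. GC content was 65.2% for Icam1 and 68% for Pcdh18, where the median of all promoters was 52.4%. Itga11, Itgb6 and Itgb7, the other 3 genes in the table among the 10 members at least 1.5-fold different, had no match. A match is a description of the letters and not a sign that the factor binds, and no match says only that these letters are not in that window.

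Among classical cadherins, Cdh3 stood apart from the others. Cdh3 encodes P-cadherin, which joins cells of basal epithelia and of some mesenchyme. Its level was 9.94 with DMSO and 8.51 with celastrol (probe set 10575034), a difference of -1.43 or 2.69-fold lower. Cdh2, the N-cadherin that fibroblasts use for contact, read 10.76 with DMSO and was higher by 0.24 with celastrol. Cdh1, the E-cadherin of epithelia, was close to the limit at 5.75 and 5.85. Cdh1 is the next protein-coding gene after Cdh3 on the mouse assembly, so neighbouring cadherin genes differed by unlike amounts, -1.43 and 0.10. Cdh15, the M-cadherin of muscle precursors, read 6.46 and 6.04, and Cdh4, the R-cadherin, 6.59 and 6.54.

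The detected type II cadherin with the lowest difference was Cdh11, the cadherin of mesenchyme and of synovial fibroblasts. Its probe set (10581013) read 12.27 with DMSO and 11.63 with celastrol, a difference of -0.64 or 1.55-fold lower. Another 3 probe sets name Cdh11 together with the genes 6820431F20Rik and 2610005L07Rik and could not be assigned to a single gene. Those 3 had differences of 0.09, 0.22 and 0.26, opposite in sign, so the direction for Cdh11 rests on the probe set that names it alone. Cdh11 lies between Cdh8 and Cdh5 among protein-coding genes, whose differences were -0.13 (under the limit on both arrays) and 0.15. Cdh6 read 5.76 and 6.13 and Cdh24 read 7.51 and 7.79. The second probe set of Cdh24 gave -0.18 against 0.28 for the first, so no direction can be given for that gene. Cdh22 read 6.77 and 6.65. Cdh5, the VE-cadherin of endothelium, was under the limit with DMSO at 5.62 and just above it with celastrol at 5.77. The other 8 type II genes, which are mostly known from neurons, were under the limit on both arrays. These were Cdh7, Cdh8, Cdh9, Cdh10, Cdh12, Cdh18, Cdh19 and Cdh20.

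The cadherins outside these types differed by less than the receptor scatter. Cdh13, the T-cadherin that is anchored by a lipid and binds adiponectin, read 6.83 and 6.58. Cdh16 of kidney read 6.06 and 6.15, Cdh17 of liver and intestine 5.82 and 5.90, and Cdh23, the partner of Pcdh15 in hair cells, 5.94 and 6.02. These 3 had differences of 0.08 to 0.09 near the detection limit. Cdh26 was under the limit.

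Of 20 detected integrin subunits, 6 (30%) lay outside the receptor scatter, beside 21.7% of all detected genes, and they went both ways. Itga6, a laminin-binding alpha subunit that pairs with Itgb1 or Itgb4, was highest. It read 7.11 with DMSO and 8.33 with celastrol (probe set 10472820), a difference of 1.22 or 2.33-fold higher, rank 151 from the highest of all detected genes. Its beta partners differed far less. Itgb1, the beta subunit shared by most matrix receptors, read 11.60 and 11.80, and Itgb4, the hemidesmosome subunit, read 6.44 and 6.57. The other laminin-binding alpha subunits were Itga3, at 9.75 and 9.77, and Itga7 of muscle, at 6.02 and 6.24. All 3 laminin-binding subunits had positive values, but Itga3 differed by only 0.02.

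Of the collagen-binding alpha subunits, only Itga11 lay outside the receptor range. Itga11, the collagen receptor of mesenchymal cells, read 8.36 with DMSO and 7.76 with celastrol, 1.51-fold lower (-0.60). Itga1 read 6.38 and 6.11, and Itga10, known from cartilage, read 6.20 and 6.02. Itga2, the collagen receptor of platelets and epithelia, stayed near the limit at 5.77 and 5.82. Of these 4, 3 (75%) were lower, where 51.9% of all detected genes were, and the range was -0.60 to 0.05.

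The RGD-binding alpha subunits, named for the tripeptide they recognise in fibronectin and vitronectin, were all slightly higher. Itga5, which makes the fibronectin receptor with Itgb1, read 10.69 and 10.99, a difference of 0.29. Itgav read 9.89 and 10.16, a difference of 0.27, and Itga2b, the platelet fibrinogen receptor subunit, 6.77 and 6.89. None of the 3 lay outside the receptor range, and Itga8 was under the limit. Among the beta subunits that pair with Itgav, Itgb5, Itgb6 and Itgb8 were lower. Itgb6, an epithelial subunit whose integrin activates latent TGF-beta, read 6.62 and 6.01, 1.52-fold lower. Itgb5, a vitronectin receptor subunit, read 11.76 and 11.28, 1.40-fold lower. Itgb8, another activator of latent TGF-beta, read 7.26 and 7.12, while Itgb3 read 7.62 and 7.73. Itgav with Itgb3 or Itgb5 also serves adenovirus as an entry receptor, and both cultures had been infected before the compound was given.

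The leukocyte beta subunits Itgb7 and Itgb2 were higher while their alpha partners were mostly not detected. Itgb7, which pairs with Itga4 or Itgae on lymphocytes, read 6.67 with DMSO and 7.57 with celastrol, 1.86-fold higher (0.90). Itgb2, the beta subunit shared by the leukocyte integrins, was under the limit with DMSO at 5.62 and read 6.38 with celastrol. Itgb2 thus counted as detected through the celastrol array alone. It is among the members counted as 1.5-fold higher and as outside the receptor range. With the limit put in place of its DMSO value, the fold was 1.57, with no allowance for scatter of the celastrol value. Itga4, Itgae, Itgal, Itgam and Itgax were under the limit on both arrays. Itgad read 6.48 and 6.47, and its second probe set 5.49 and 5.63. Itgam, Itgax and Itgad follow each other on the assembly and had differences of -0.10, -0.30 and -0.01. Beside these values, the leukocyte markers Ptprc (5.50 and 5.71), Adgre1 (4.69 and 4.64) and Lyz2 (4.78 and 4.84) were under the limit in both cultures. The summed level of all 9 measured leukocyte markers, Itgb2 and Itgam included, was 8.92 with DMSO and 9.52 with celastrol (log2), and that of the 5 detected ones 8.47 and 9.23. Besides Itgb2, these were Cd68, a lysosomal protein abundant in macrophages, at 6.86 and 8.33, Csf1r at 5.99 and 6.25, Cd3e at 6.15 and 6.35, and Fcgr3, which was lower, at 5.76 and 5.31. The last value of Fcgr3 was under the limit. The part of these cells in the Itgb2 and Itgb7 values was not tested.

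**Figure D2:**
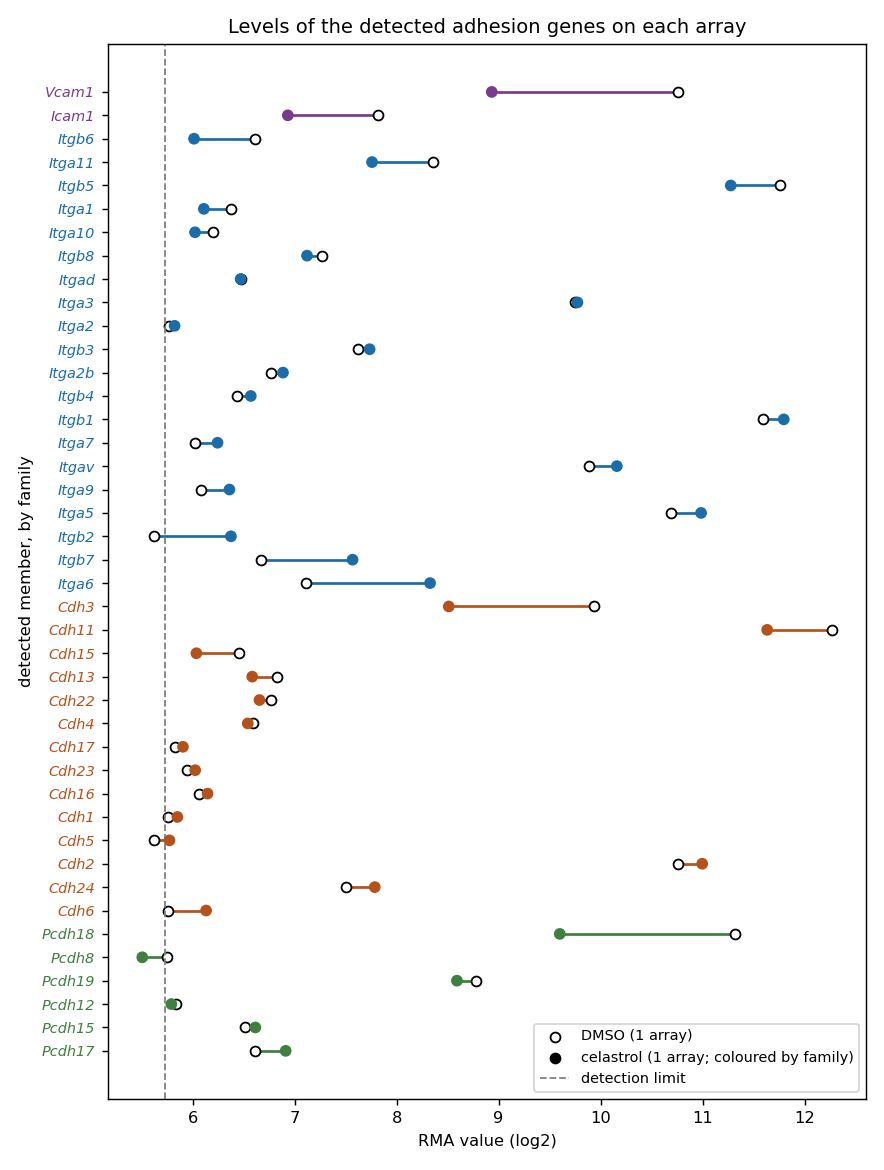
RMA value (log2) of each of the 42 detected adhesion genes on the DMSO array (open circles) and on the celastrol array (filled, coloured by family), joined by a line and sorted by difference within each family; the dashed line is the detection limit of 5.72. Long lines to the left belong to Vcam1, Icam1, Cdh3 and Pcdh18, and those to the right to Itga6, Itgb7 and Itgb2.

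The labelled cell type was checked with marker genes. Of 12 fibroblast markers, 10 were detected, while Fap and Lum were under the limit. Of these 10, 8 were lower with celastrol, where 51.9% of all detected genes were lower. The median difference was -0.33 over the 10 and -0.01 over all detected genes, beside the lower values of Cdh11 and Itga11. Of the lower markers, only S100a4, Postn and Col1a1 lay outside the receptor range. S100a4 was lowest at 11.14 and 10.26, Postn read 11.35 and 10.74, and Col1a1, the main collagen chain of fibroblasts, 12.16 and 11.69. The 2 higher ones were Vim (13.85 and 13.95) and Pdgfra (10.08 and 10.35). The endothelial markers measured had a summed level of 8.95 with DMSO and 8.97 with celastrol, those under the limit included, and Pecam1, Kdr, Tek and Emcn were under the limit. The epithelial markers stood at 8.85 and 8.84, with Epcam under the limit, beside the lower values of Cdh3 and Itgb6. The neural markers stood at 9.69 and 9.74, and the muscle ones, which include Cdh15 and Itga7, at 9.55 and 10.02. Of 6 muscle markers, 4 were higher and 2 lower, Cdh15 among the latter (-0.42), and Tnnt2 differed most (8.34 and 9.21). The part of cell composition in the differences of Cdh3, Cdh11, Itga11 and Itgb6 was not tested.

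**Figure D3:**
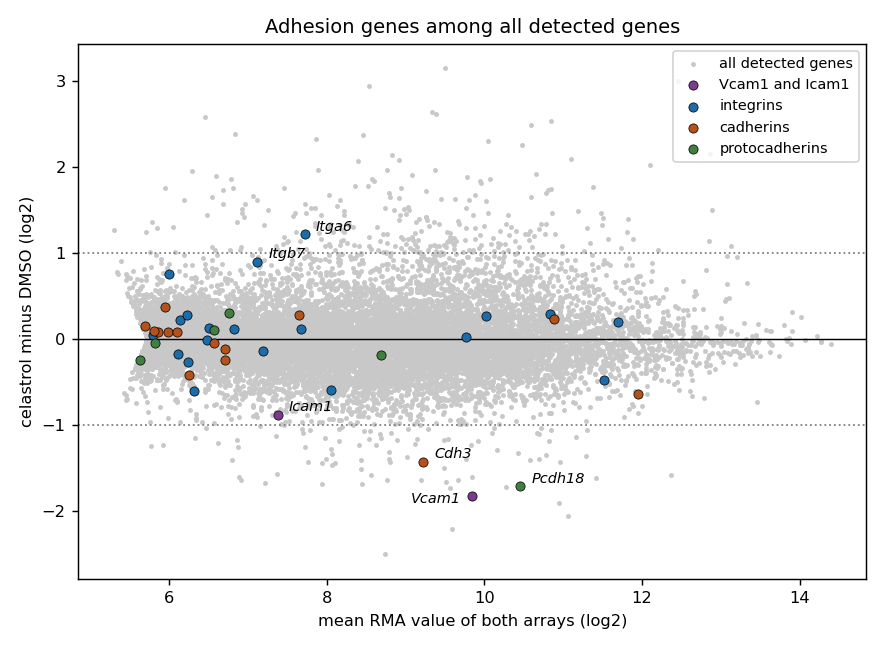
Celastrol minus DMSO (log2) against the mean RMA value of both arrays (log2) for the 13907 detected genes in grey, with the 42 detected adhesion genes coloured by family; dotted lines mark 2-fold. Vcam1, Pcdh18 and Cdh3 lie at the lower edge of the cloud, whereas most integrins and cadherins lie within its centre.

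Transcripts of the proteins that integrins and cadherins hold inside the cell were mostly within the receptor scatter. Outside it lay 2 of 24 integrin adaptors (8.33%, Parvb and Ilk) and 0 of 15 catenins and partners, beside 21.7% of all detected genes. Of 24 detected integrin adaptors and activators, 10 (41.7%) were above 0, beside 48.1% of all detected genes, and 14 below. Their median was -0.03. None reached 2-fold, where 1.88% of all detected genes were higher and 0.662% lower by that much. Parvb, an actin-binding parvin of the Ilk complex, was highest at 7.78 and 8.57, 1.72-fold higher, followed by Pxn, the focal adhesion scaffold paxillin, at 9.91 and 10.20. Ilk, the integrin-linked pseudokinase, was lowest at 10.87 and 10.42, followed by Tln2, the second talin, at 7.99 and 7.57. Tln1, the main talin of fibroblasts, read 10.47 and 10.46. Of 15 detected catenins and partners, 9 (60%) were above 0, beside 48.1% of all detected genes, with a median of 0.08. None reached 1.5-fold, where 6.19% of all detected genes were higher and 4.68% lower by that much. Ctnnb1, beta-catenin, was highest at 12.27 and 12.63, with Nectin1, a junctional immunoglobulin protein, at 0.30. Nectin2 was lowest at 8.05 and 7.69, and Arvcf, a p120-catenin relative, stood at -0.23.

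The matrix ligands went both ways. Of 15 detected, 7 (46.7%) were above 0, beside 48.1% of all detected genes, and 8 below, with a median of -0.05. Outside the receptor range lay 6 of the 15 (40%), beside 21.7% of all detected genes. Lamb1 and Lamc1, the beta and gamma chains of the common laminins that Itga6 binds, were highest, at 9.63 and 10.24 (1.53-fold) and at 10.51 and 11.09 (1.49-fold). The laminin alpha chains Lama1, Lama3, Lama4 and Lama5 lay near the limit, between 5.40 and 6.23. Thbs1, thrombospondin, was lowest at 13.82 and 13.09, and Postn, periostin, which binds Itgav integrins, read 11.35 and 10.74. Fn1, the fibronectin bound by Itga5, read 13.42 and 13.47.

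Adhesion molecules related to Vcam1 and Icam1 went both ways. Of 18 detected immunoglobulin-type molecules and selectins, 12 (66.7%) were above 0, beside 48.1% of all detected genes, and 6 were below, with a median of 0.07. Alcam, which binds itself and the lymphocyte protein CD6, read 9.31 with DMSO and 10.78 with celastrol, 2.78-fold higher. Jam2, a junctional adhesion molecule, read 8.47 and 9.87, 2.64-fold higher. Mcam, a marker of perivascular cells, was lowest at 9.04 and 8.37, 1.60-fold lower, and L1cam, a neuronal molecule, stood at -0.35. Icam2, the relative of Icam1 found on endothelium and platelets, read 6.04 with DMSO and was under the limit with celastrol at 5.71. Sele, an endothelial selectin that NF-kB is also known to induce, went opposite to Vcam1 and Icam1. It read 6.07 with DMSO and 6.51 with celastrol, 1.36-fold higher. Both values were near the limit but above it, and the difference of 0.44 lay outside the receptor range.

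Among the desmosomal and large cadherins, Fat4 was far lower than the rest. Fat4, a giant cadherin that binds Dchs1 and sets planar polarity, read 10.24 with DMSO and 8.74 with celastrol, 2.84-fold lower. Dchs1 was under the limit on both arrays. Fat1 read 11.10 and 10.94, and Fat3 6.78 and 6.43. In that list 8 genes were detected, 7 of them (87.5%) below 0, where 51.9% of all detected genes were. Fat4 alone lay outside the receptor range (12.5% of the list, beside 21.7% of all detected genes). It alone was beyond 2-fold (12.5% lower, beside 0.662%). The median was -0.15, and the desmosomal genes measured (Dsg2, Dsg3, Dsc2 and Dsc3) were under the limit. The highest were Celsr1 (0.04) and Fat2 (-0.01).

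Transcription factors known for switching cadherin expression during epithelial-mesenchymal transition had a median of 0.00 over 8 detected genes. Of these, 4 (50%) were above 0, beside 48.1% of all detected genes, and 4 below. Twist1 (0.48) and Zeb2 (0.47) lay outside the receptor range, 2 of 8 (25%), beside 21.7% of all detected genes. Twist1 read 8.44 and 8.92 and Zeb2 8.31 and 8.78, the highest of the list. Tcf3 read 9.97 and 9.58 and Snai1, the Snail repressor of Cdh1, 9.91 and 9.52, the lowest. None reached 1.5-fold, where 6.19% of all detected genes were higher and 4.68% lower by that much.

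**Figure D4:**
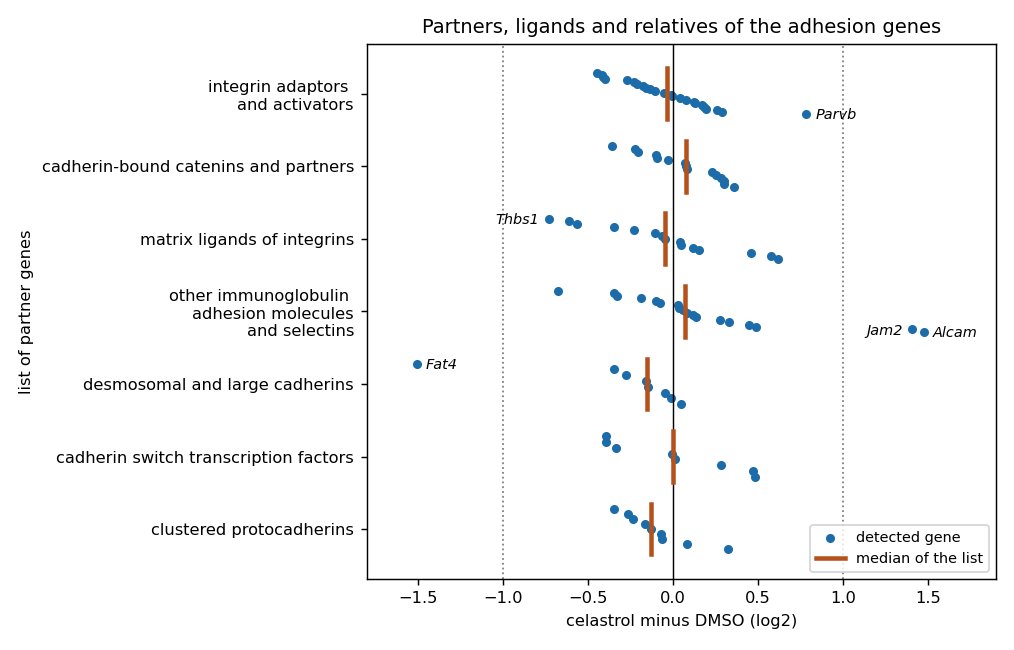
Celastrol minus DMSO (log2) of the detected genes in 7 lists of partners, ligands and relatives of the adhesion genes; each point is a gene, the bar is the median of the list and dotted lines mark 2-fold. Medians lie between -0.15 and 0.08, and Fat4 on the left and Alcam and Jam2 on the right are the genes beyond 2-fold.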

How the data were processed

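The authors deposited log2 values that they made with RMA (background correction, quantile normalization and a summary per probe set), per the submitters' processing notes. Its version and settings, and whether more arrays were normalized together with these, are not given in the sources used. RMA compresses differences of dim probe sets. The base of the logarithm was read from the range of the values (2.73 to 14.52). Of 35556 probe sets, the platform annotation named 1 gene for 21797, several for 1613 and none for 12146, and only the first kind was used. Entrez identifiers matched the GRCm38.p6 gene table for 21698 probe sets and for all 62 members. Each gene took its probe set with the highest mean of both arrays, which mattered for 5 members. Beyond that choice, the detection limit and the summed marker levels, levels of different probe sets were not compared.

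With 1 array per group there is no p-value, error or interval, and the number of arrays limits the precision. The difference is celastrol minus DMSO, and a fold is 2 raised to its size. The differences per gene and the counts past 2-fold were checked on simulated data with known changes. The members and all lists were chosen with earlier results of these data known. The members named with both values are those at least 1.5-fold different, the highest and lowest of each class, Vcam1 and Icam1, and, in small classes, the others. From each list the 2 highest and 2 lowest are named. Other list genes (Tln1, Fn1, the laminin alpha chains, Sele, Icam2, Fat1, Dchs1 and the desmosomal genes) were named after their values were seen. Promoters came from RefSeq, where 41 of the 62 members had an entry. Alternatives tried were no detection limit, a limit at the overall probe set median, averaging the probe sets of each gene, quantile normalization, removing the median difference or a lowess trend (fraction 0.3), and thresholds of 1.5-fold and 3-fold. Python 3.11.15, numpy 2.4.6, pandas 2.3.3, statsmodels 0.14.6 and matplotlib 3.10.9 were used.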

Additional observations from a re-analysis of the deposited data

How the results depend on the processing

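Of 294 recalculations under 8 alternatives, 286 moved by less than the spread used as a yardstick, which was 0.21 on the log2 scale (the SD of the receptor probe sets' differences), or for counts by at most 1.5 times, and 8 moved by more. The differences of the 23 members named by rule gave 134 of these recalculations, and each moved by less than 0.21. Itgad alone changed sign (-0.02 to 0.07). Over all settings that keep the 2-fold threshold, Vcam1 ran from -1.82 to -1.77, Pcdh18 from -1.72 to -1.67, Cdh3 from -1.43 to -1.37 and Itga6 from 1.22 to 1.27, and the counts stayed at 3 lower and 1 higher. With the median of all probe sets as the detection limit, 31 members were detected and 15 lay above 0, the median became -0.18 for cadherins, 0.62 for laminin-binding alpha subunits, -0.11 for type II cadherins and -0.25 for the other cadherins, since dim genes left each class. The fold threshold moved the counts by construction, to 7 lower and 3 higher at 1.5-fold and to 2 lower and 0 higher at 3-fold. The median of all members changed sign too (-0.01 to 0.08). No paired analysis was possible because each group holds 1 array. Signal over background limits the 20 undetected members, for which a difference cannot be read.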

Other observations

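Clustered protocadherins, neuronal recognition molecules encoded side by side, were represented by 22 Pcdhb genes with a probe set naming 1 gene. Of these, 9 were detected and 7 of the 9 were lower with celastrol, where 51.9% of all detected genes were, with a median of -0.13. Their range was -0.35 to 0.32. Outside the central 95% of the receptor probe sets lay 0 of the 9, beside 21.7% of all detected genes. Pcdhb22 read 6.89 with DMSO and 6.54 with celastrol and Pcdhb21 6.76 and 6.49, the lowest, and Pcdhb4 5.60 and 5.92 and Pcdhb8 5.89 and 5.98, the highest. Pcdhb genes are close copies of each other, which leaves their single values uncertain. No detected Pcdhb gene reached 1.5-fold, where 6.19% of all detected genes were higher and 4.68% lower by that much.

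A further 3 probe sets name Itgam together with Rpl35, a ribosomal protein gene, and read 13.16 to 13.29 with DMSO and 13.04 to 13.17 with celastrol. The probe set naming Itgam alone read 4.92 and 4.82.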
